A study of Mus musculus with 4 samples.

Results

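Accessible chromatin was described at 8 genes that set or display the splicing state of epithelial cells: Esrp1, Esrp2, Rbm47 and Rbfox2, which encode RNA-binding splicing regulators, the FGF receptor genes Fgfr1 and Fgfr2, and Cd44 and Enah, which encode an adhesion receptor and an actin regulator with switched isoforms. A locus was the GENCODE gene body plus 50 kb upstream of its transcription start site (TSS), and every FAIRE-positive region overlapping a locus was a member. After peaks of the 4 libraries that overlapped were merged, 43 of 35796 regions lay in these loci. For Fgfr2, 1 GENCODE transcript starts far outside the gene and spans 2.96 Mb over 30 other protein-coding genes. With that transcript the rule gave 94 regions, 51 of them in that stretch. It was left out of the locus, a choice made after the data were seen, and the 51 regions are given separately.

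FAIRE-seq, which recovers and sequences DNA that is free of crosslinked protein, had been performed in EpRas cells, a mouse mammary gland epithelial line, and all 4 groups expressed active H-Ras and were taken at day 4. The groups were control siRNA (siControl) without TGF-β, siControl with TGF-β3 at 1 ng/ml, and TGF-β with siRNAs targeting both Etv4 and Etv5 in place of siControl (siEtv4/5), in 2 versions (set 1 with MSS237548 and MSS272298, set 2 with MSS237550 and a custom-made siRNA). No library of siEtv4/5 without TGF-β was analysed here, and RNA was not measured in these files, so the knockdown itself was not checked. Each group had 1 peak list, which may combine biological replicates, so no test of a condition was possible, and intervals of counts, shares and ratios cover counting error only. The estimated depth was 15.3, 16.3, 17.3 and 20.7 M reads (megareads) in the order untreated, TGF-β, set 1, set 2, and the lists held 22247, 28754, 22516 and 14925 regions. All values of 4 libraries follow this order. Promoters of 5 epithelial marker genes (Krt8, Krt18, Epcam, Cdh1, Cldn7) held a region in 4, 3, 2 and 2 cases, those of 5 mesenchymal marker genes in 1, 2, 2 and 3 cases (of Vim, Fn1 and Col1a1, none of Cdh2 or Zeb1), and those of 5 genes of other lineages in 0, 1, 0 and 0 cases (Pecam1). The part of these markers in the results below was not tested.

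ESRP1 and ESRP2 are epithelial splicing factors that promote epithelial exons in many transcripts, and their loss is a known feature of the epithelial-mesenchymal transition (EMT) that TGF-β can induce. RBM47 is another RNA-binding protein of epithelia, while RBFOX2 is known for promoting mesenchymal isoforms. The best known targets are FGFR2, whose IIIb and IIIc exons are mutually exclusive and change the ligands it binds, CD44 with its variable exons, and ENAH (Mena) with the epithelial exon 11a. FAIRE-seq does not read splicing or RNA levels, and in a bulk sample more cells with an open site and a site more open in each cell cannot be told apart.

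The sequences of 9 regions, picked by no fixed rule, are given first, on the plus strand of mm10 (GRCm38), as the whole region or the 300 bases around its summit. Capitals mark matches, on either strand, to the core motifs of AP1 (TGACTCA), ETS (CAGGAAG or CCGGAAG), RUNX (TGTGGTT), the E-box (CAGGTG), GRHL (AACNNGTT) or TEAD (GGAATG). A match is a run of letters and not a measured binding site. Most of the 9 hold an AP1 match, while 37.2% of the 43 members and 36.4% of all merged regions do within 500 bp. The 9 thus do not represent the members in motif content. The first is a region upstream of Esrp2 that was called only in 2 libraries with TGF-β and holds no match.

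Esrp2, 3.97 kb upstream of the TSS, chr8:106140859-106141036: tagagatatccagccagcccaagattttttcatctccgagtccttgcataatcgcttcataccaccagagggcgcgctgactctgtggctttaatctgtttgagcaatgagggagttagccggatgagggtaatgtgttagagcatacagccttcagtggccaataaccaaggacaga

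At Rbfox2, 3 regions in introns are shown. The first was called in all 4 libraries, and its AP1 and TEAD matches share bases and stand before an ETS match. The second was absent with set 2, and the third, near an internal promoter, was absent with both sets.

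Rbfox2, 114 kb inside the gene, chr15:77192600-77192814: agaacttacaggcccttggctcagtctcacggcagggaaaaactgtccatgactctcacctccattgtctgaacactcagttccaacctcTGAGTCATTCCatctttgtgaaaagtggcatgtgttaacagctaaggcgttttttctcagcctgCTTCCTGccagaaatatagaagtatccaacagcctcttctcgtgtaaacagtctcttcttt

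Rbfox2, 86.7 kb inside the gene, chr15:77220175-77220436: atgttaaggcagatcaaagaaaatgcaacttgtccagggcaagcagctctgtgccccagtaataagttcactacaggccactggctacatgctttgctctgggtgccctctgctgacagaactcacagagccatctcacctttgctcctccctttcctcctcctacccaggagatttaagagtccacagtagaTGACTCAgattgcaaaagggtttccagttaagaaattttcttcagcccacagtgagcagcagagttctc

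Rbfox2, 152 kb inside the gene, chr15:77154485-77154680: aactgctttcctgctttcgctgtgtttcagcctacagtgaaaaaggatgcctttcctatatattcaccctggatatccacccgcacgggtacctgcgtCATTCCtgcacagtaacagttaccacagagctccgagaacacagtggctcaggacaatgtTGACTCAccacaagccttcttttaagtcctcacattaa

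The next 2 come from Rbm47. One had the highest fold enrichment of the locus and holds an AP1 and a RUNX match. Of all members, the other differed most in fold enrichment between siControl with and without TGF-β, and it holds an AP1 match.

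Rbm47, 27.0 kb upstream of the TSS, chr5:66200050-66200349: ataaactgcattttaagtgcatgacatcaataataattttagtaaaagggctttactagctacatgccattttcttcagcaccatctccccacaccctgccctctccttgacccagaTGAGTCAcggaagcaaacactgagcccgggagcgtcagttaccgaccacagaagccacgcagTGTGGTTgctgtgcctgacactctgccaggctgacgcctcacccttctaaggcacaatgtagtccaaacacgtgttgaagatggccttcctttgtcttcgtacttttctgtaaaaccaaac

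Rbm47, 84.7 kb inside the gene, chr5:66088319-66088552: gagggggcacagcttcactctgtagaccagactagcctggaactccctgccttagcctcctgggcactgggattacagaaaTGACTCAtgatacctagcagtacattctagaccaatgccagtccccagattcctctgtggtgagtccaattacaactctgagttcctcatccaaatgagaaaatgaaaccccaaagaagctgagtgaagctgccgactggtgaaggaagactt

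The last 3 lie at the receptor, adhesion and actin genes. The distance at Fgfr1 is from the start of the GENCODE gene body. Those of Fgfr1 and Cd44 were called in all 4 libraries and each hold 2 AP1 matches, at Cd44 with an ETS match directly before the latter of them. That of Enah was absent with set 2.

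Fgfr1, 47.9 kb upstream of the TSS, chr8:25465593-25465876: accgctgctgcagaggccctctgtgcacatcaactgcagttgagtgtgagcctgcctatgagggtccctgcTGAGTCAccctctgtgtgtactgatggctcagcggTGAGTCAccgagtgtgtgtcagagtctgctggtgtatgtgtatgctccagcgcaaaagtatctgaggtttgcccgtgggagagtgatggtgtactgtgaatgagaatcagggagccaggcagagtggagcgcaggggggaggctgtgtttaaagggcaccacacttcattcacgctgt

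Cd44, 47.0 kb upstream of the TSS, chr2:102948582-102948808: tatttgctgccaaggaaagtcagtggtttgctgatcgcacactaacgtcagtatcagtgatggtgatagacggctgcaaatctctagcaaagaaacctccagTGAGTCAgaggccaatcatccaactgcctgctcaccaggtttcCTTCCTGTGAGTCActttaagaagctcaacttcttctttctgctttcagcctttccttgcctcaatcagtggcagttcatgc

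Enah, 34.9 kb inside the gene, chr1:181984961-181985147: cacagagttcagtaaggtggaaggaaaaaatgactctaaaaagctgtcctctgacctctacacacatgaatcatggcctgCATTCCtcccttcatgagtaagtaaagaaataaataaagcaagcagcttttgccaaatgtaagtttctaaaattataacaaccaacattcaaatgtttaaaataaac

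There were 27 regions at the 8 loci in untreated siControl cells, 39 in TGF-β-treated ones, 27 after knockdown by set 1 and 15 by set 2. Rbfox2 held 13 merged regions, Rbm47 11, Cd44 7, Esrp2 and Fgfr1 4 each, Enah 3, Esrp1 1 and Fgfr2 none. Per 100 kb this was 3.51 regions over the 8 windows together. Over 21938 single protein-coding genes with windows built the same way the median was 1.97, and 27.1% held no region. Of these windows 65.6% had a density under 3.51. Esrp1 (0.954), Enah (1.73) and Fgfr2 (0) lay under the median. Of the 43 regions, 22 lay in introns, 8 overlapped exons and 13 lay upstream, and for 39 the nearest protein-coding TSS was that of the member gene. All 4 libraries called 13 regions (30.2%), and 12 (27.9%) were called in 1 library. Over all merged regions these shares were 29.6% and 31.5%. The most frequent other patterns were regions missing only with set 2 and regions found only in siControl with TGF-β, 8 each, against 11.6% and 16.1% of all merged regions.

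**Figure D1:**
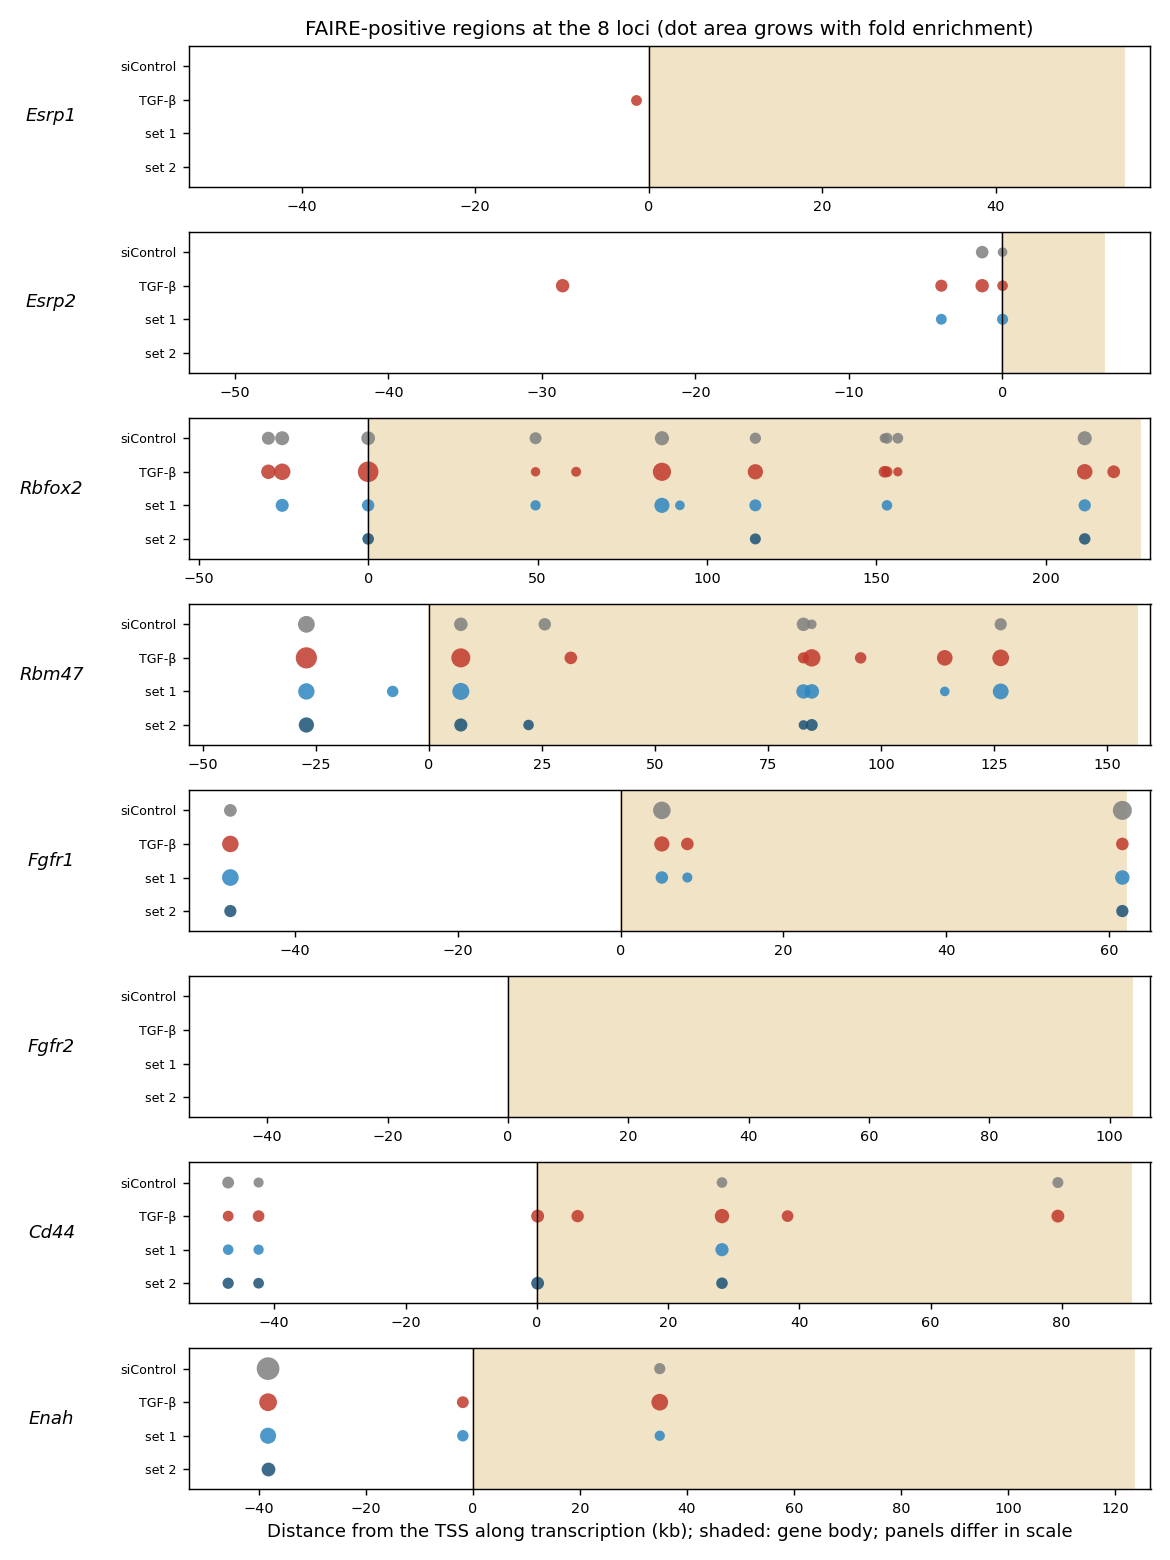
FAIRE-positive regions of the 4 libraries (rows) at each locus by distance from the TSS along transcription in kb, where the area of a dot grows with fold enrichment and the gene body is shaded. The Fgfr2 panel is empty, Esrp1 has 1 dot in the library with TGF-β, and Rbfox2 and Rbm47 have dots along their whole bodies.

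**Figure D2:**
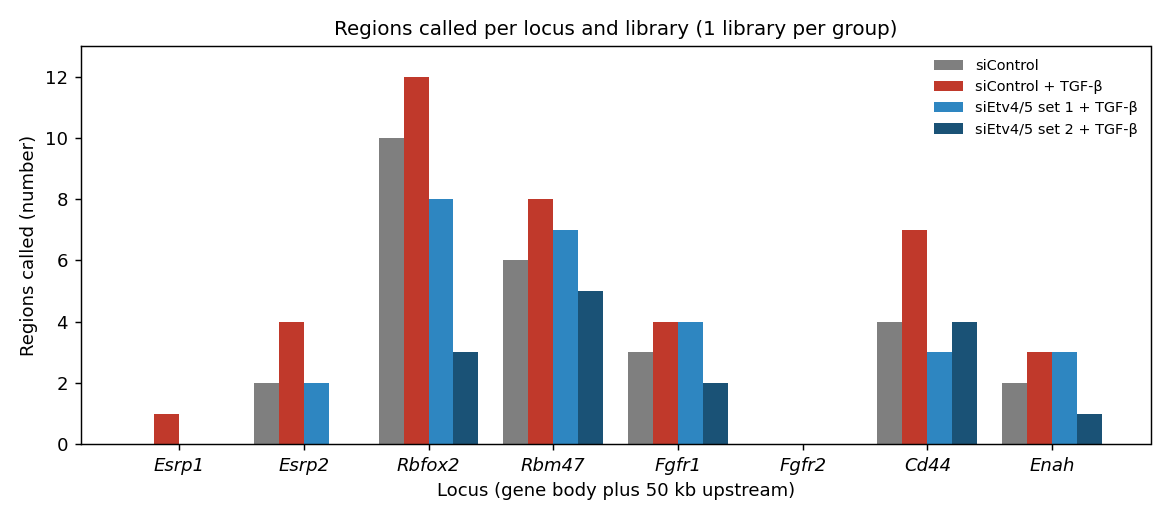
Number of regions called at each locus in each of the 4 libraries, 1 library per group. The library of siControl with TGF-β has the highest or an equal highest bar at each of the 7 loci with regions, and set 2 has no bar at Esrp1 and Esrp2.

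In the comparison of siControl with and without TGF-β, which asks how TGF-β changes accessibility, 13 of the 39 regions of TGF-β-treated cells had no overlapping region in untreated cells and are called gained (33.3%, Wilson 95% interval 20.6 to 49.0%). Over the whole list this share was 37%, so that of the 8 loci was near the background. Cd44 and Rbm47 gained 3 regions each, Esrp2 and Rbfox2 2 each, and Esrp1, Fgfr1 and Enah 1 each. In the other direction, 1 of the 27 regions of untreated cells, in an intron of Rbm47, was not called with TGF-β (3.70%, interval 0.657 to 18.3%), against 18.4% of the whole list.

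A region that is missing from a list may be weaker there or only just under the threshold of peak calling, so the fragments at its summit were examined. For each missing region, a limit in summit fragments was estimated from the local background. It was set so high in -log10 p that about 90% of the narrowest called peaks lay under it. Calls with fewer fragments than the limit therefore occurred. A call was beyond counting error where the lower 95% bound of the summit fragments per M reads of depth (FPM) lay above that limit. None of the 39 regions of the TGF-β library was gained in this sense (0.396% of the whole list), and none of the 27 of the untreated library was lost (0.0315%). Because the limit is high, few regions can pass it. These counts therefore do not show how near the missing regions came to a call.

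In TGF-β-treated cells, which regions were missing after knockdown of Etv4/5 was compared with the same siControl library for both sets, so the comparisons share that library, also with the TGF-β comparison. With set 1, 14 of the 39 regions were absent (35.9%, interval 22.7 to 51.6%), against 33.6% of the whole list. With set 2, 25 were absent (64.1%, interval 48.4 to 77.3%), against 53.6%. Among these were 9 of the 12 regions of Rbfox2 and all 4 of Esrp2, and at Rbm47 4 of 8. Absent beyond counting error were none of the 39 with set 1 (0.379% of the whole list) and 3 of the 39 with set 2 (7.69%, interval 2.65 to 20.3%, against 4.8% of the whole list). This count does not take a shift of the whole library into account. The 3 were the Rbfox2 regions at 86.7 and 152 kb and the Enah region at 34.9 kb. Their lower bounds were 1.40, 1.756 and 1.194 FPM, against limits of 1.21, 1.742 and 1.162. The limit is an approximation on the high side, so few regions can pass it. The latter 2 regions passed it narrowly. New with set 1 were 2 of its 27 regions, 1 each at Rbfox2 and Rbm47 (15.2% of the whole list), and new with set 2 was 1 of 15, at Rbm47 (10.3%).

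The library of set 2 was the deepest and its list the shortest, so the lists were also compared at equal length, with the 14925 most significant peaks of each. The 8 loci then held 18, 21, 18 and 15 regions. Absent with set 2 were 9 of the 21 (33.4% of the whole list), absent with set 1 were 7 (31.4%), gained with TGF-β were 7 (34.4%), and lost with TGF-β were 4 of 18 (34.3%). New with set 1 were 4 of 18 (31.4%) and new with set 2 were 3 of 15 (33%). By locus, Rbfox2 held 8, 8, 5 and 3 regions, Rbm47 4, 4, 5 and 5, Cd44 1, 4, 3 and 4, Esrp2 1, 1, 1 and 0, Fgfr1 3, 2, 2 and 2, Enah 1, 2, 2 and 1, and Esrp1 and Fgfr2 none. Differences between loci in these small counts were not tested.

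The strength of regions was compared where both libraries called them, on the log2 ratio of the authors' fold enrichment, the summit signal over the local background. With TGF-β the median log2 ratio over 26 member regions was 0.22 (95% interval of the median over regions 0.01 to 0.38), against 0.12 over all 18125 such regions. For set 1 over siControl, both with TGF-β, it was −0.16 (−0.31 to −0.07, 25 regions), and the median of all regions was −0.16 too. For set 2 it was −0.40 (−0.53 to −0.04, 14 regions), against −0.38 over all. In each comparison the interval of the members' median included the median of all regions. At least 0.58 on the log2 scale (about 1.5 times) from the median of all regions were 1 member higher (2.59% of all) and 1 lower (2.55%) with TGF-β, 1 lower with set 1 (2.2%), and none with set 2 (2.98% higher and 2.67% lower).

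**Figure D3:**
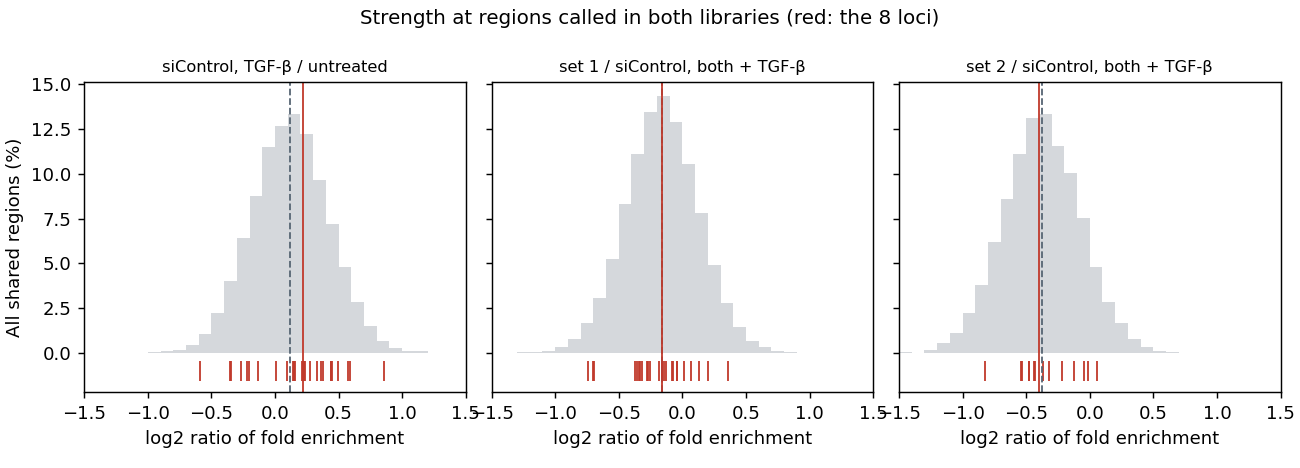
Histograms of the log2 ratio of fold enrichment over all regions called in both libraries (grey, in percent), with the regions of the 8 loci as red ticks. The dashed line is the median of all regions and the red line that of the 8 loci, at 0.12 and 0.22 for TGF-β, −0.16 and −0.16 for set 1, and −0.38 and −0.40 for set 2.

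In the 13 regions called in all libraries, fold enrichment was highest in siControl with TGF-β at 8 (55.3% of all such regions) and lowest with set 2 at 9 (65.3%). On FPM, which takes the depth of set 2 into account and not the local background, set 2 was lowest at 12 (84.4%). The whole libraries differed on this scale, with a median log2 difference in FPM over all shared regions of 0.13 with TGF-β over untreated, and of −0.24 and −0.67 with set 1 and set 2 over siControl. Each interval of a log2 difference in FPM given for a single region below includes the median of its own comparison.

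**Figure D4:**
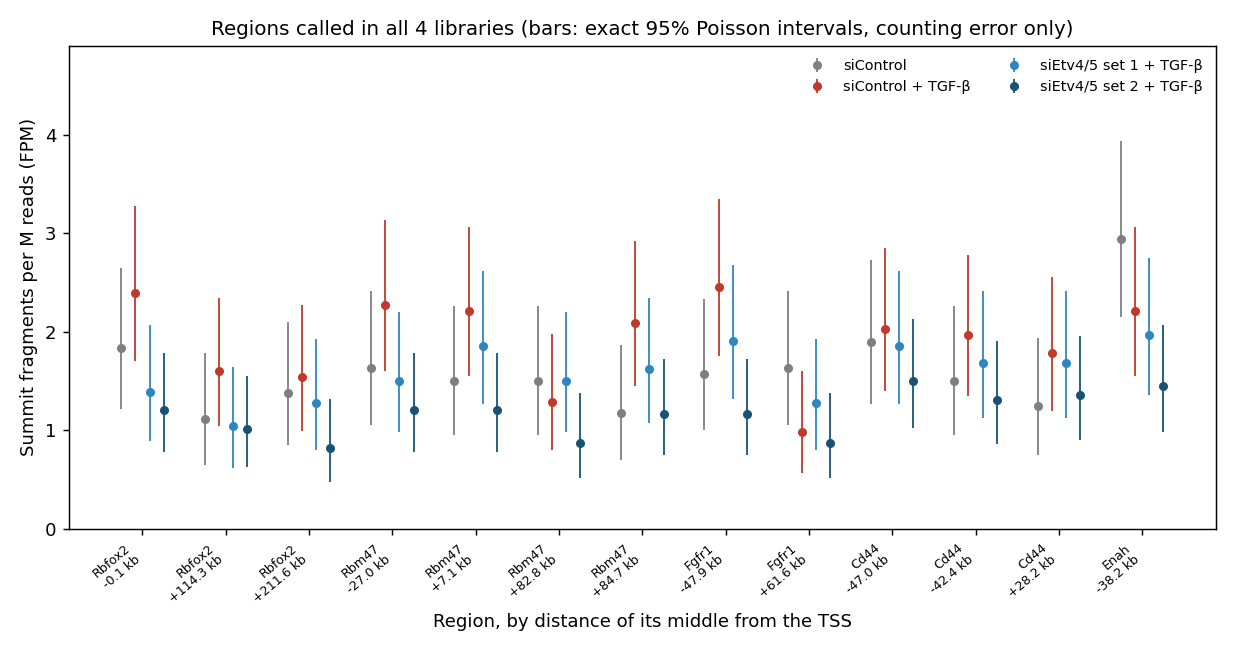
Summit fragments per M reads (FPM) in each library at the 13 regions called in all 4 libraries, with exact 95% Poisson intervals for counting error. Set 2 has the lowest value at 12 of the 13 regions, and the highest value is 2.94 FPM in the untreated library at the Enah region 38.2 kb upstream.

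Of the splicing factors of epithelia, Esrp1 held 1 region, 1.48 kb upstream of its TSS (chr4:11388196-11388339), and only in siControl with TGF-β. Its fold enrichment there was 6.33, from 22 summit fragments. The limit in the other libraries was about 24, 26 and 27 fragments at this position, so by this measure its absence there was not beyond counting error.

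Esrp2 held 2, 4, 2 and 0 regions. At its TSS (chr8:106136864-106137052) the fold enrichment was 5.61 in untreated cells, 6.22 with TGF-β and 6.51 with set 1, from 22, 23 and 24 fragments. With set 2 no region was called, and the limit there was about 28 fragments. The 3 values were within counting error of each other. A region 1.31 kb upstream (chr8:106138206-106138368) had 7.34 without and 7.83 with TGF-β, from 29 fragments in both, and was called with neither set. Of the regions shown, that 3.97 kb upstream had 7.08 with TGF-β and 6.34 with set 1. The region of highest fold enrichment at the locus, 28.7 kb upstream (chr8:106165561-106165694), was called only with TGF-β at 7.85, from 20 fragments. In that library the region 1.31 kb upstream was close to it in fold enrichment and had more fragments. The nearest TSS to the region at 28.7 kb was that of Slc7a6, 3.23 kb away.

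Rbm47 held 6, 8, 7 and 5 regions, 4 of them in all libraries. The region 27.0 kb upstream had a fold enrichment of 9.81, 12.36, 9.57 and 8.89, from 25, 37, 26 and 25 fragments. It was highest with TGF-β and between 8.89 and 9.81 in the others. Its FPM with set 2 differed from that with TGF-β by −0.91 on the log2 scale (95% interval −1.70 to −0.14). At 7.10 kb inside the gene (chr5:66165834-66166203) the values were 7.91, 11.12, 9.95 and 7.68, and those with TGF-β and set 1 stood above the other 2. In the intron 84.7 kb inside the gene they were 5.62, 10.15, 8.50 and 6.97, from 18, 34, 28 and 24 fragments, the largest log2 ratio of fold enrichment with TGF-β among the members, 0.85. On FPM this was 0.83 with an interval of −0.04 to 1.74, and for set 2 against TGF-β it was −0.85 (−1.66 to −0.05). The neighbouring region at 82.8 kb (chr5:66090184-66090354) had another order, with 7.87, 6.56, 8.41 and 5.63.

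No region was called within 2 kb of the most upstream TSS of Rbm47. A region 34 bp from an internal TSS (chr5:66150964-66151125) was called with set 2 only, at 6.15 from 21 fragments. Limits in the other libraries were about 22, 23 and 24. Of the regions in 1 library only, that of highest fold enrichment was in an intron at 31.4 kb (chr5:66141639-66141773), with 7.38 in the TGF-β library. The intronic region at 25.7 kb (chr5:66147385-66147543), the 1 lost with TGF-β, had 7.28 in untreated cells from 25 fragments. The limit in the TGF-β library was about 26.

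Rbfox2, the factor of mesenchymal isoforms, held 10, 12, 8 and 3 regions, from 29.5 kb upstream to 220 kb inside the gene. Its promoter region (chr15:77306870-77307297) had a fold enrichment of 8.00, 12.02, 7.19 and 6.78, from 28, 39, 24 and 25 fragments. The value with TGF-β stood above the other 3, which lay between 6.78 and 8.00. The log2 difference in FPM was 0.39 with TGF-β (interval −0.35 to 1.14), −0.79 for set 1 (−1.58 to −0.02) and −0.99 for set 2 (−1.77 to −0.23). With set 1 this was the region past the log2 threshold of 0.58 (about 1.5 times) below the median ratio, at −0.74 in fold enrichment.

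An internal promoter of Rbfox2 held 2 regions. At its TSS (chr15:77153707-77153952, 17 bp away) the values were 6.41, 6.46 and 6.15, and none was called with set 2, where the limit was about 36 fragments. At 152 kb, 0.77 kb from this TSS, they were 5.62 and 6.79, from 28 and 40 fragments. No region was called there with set 1 or set 2, where the limits were about 34 and 36 fragments. In the intron at 114 kb fold enrichment was 6.57, 8.94, 7.0 and 6.42, and at 212 kb (chr15:77095298-77095533) it was 8.22, 9.04, 7.16 and 6.70. Both were highest with TGF-β and lowest with set 2. The region at 86.7 kb had 8.28, 10.64 and 8.84, from 27, 33 and 32 fragments, and was not called with set 2, where the limit was about 25. Of those in 1 library, the region of highest fold enrichment, at 220 kb (chr15:77086762-77086946), had 7.47 with TGF-β.

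Among the receptors, Fgfr1 encodes an FGF receptor widely expressed in mesenchyme and held 3, 4, 4 and 2 regions. At the promoter 43 bp from a TSS inside the GENCODE gene body (chr8:25518632-25518801), fold enrichment was 10.25, 8.88 and 7.30, from 28, 27 and 20 fragments, and no region was called with set 2. The region 47.9 kb upstream of the start of the gene body lay 53.0 kb from the nearest TSS of an Fgfr1 transcript in the GENCODE set used. It had 7.42, 9.66, 9.74 and 7.14, from 24, 40, 33 and 24 fragments. The log2 difference in FPM between set 2 and TGF-β was −1.08 (interval −1.88 to −0.32). The region of highest fold enrichment, in an exon at the 3′ end (chr8:25575174-25575352), had 11.09, 7.38, 8.47 and 7.17. It was highest without TGF-β, and its log2 ratio of −0.59 was the lowest of the members in that comparison, while the interval on FPM ran from −1.74 to 0.23.

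Fgfr2, the receptor whose switch from IIIb to IIIc marks EMT in many epithelia, held no region in any library between 50 kb upstream of its TSS and its 3′ end (chr7:130162451-130316263). The list of 11 other FGF genes gave values for its relatives: Fgfrl1 held 5 regions, Fgfr4 1 and Fgfr3 none. These were named after their values were seen. In the stretch of the long Fgfr2 transcript the libraries called 34, 43, 32 and 16 regions, the first of them 253 kb from the Fgfr2 TSS, and 18 of the 51 lay within 2 kb of a TSS of another protein-coding gene.

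Cd44, which encodes the hyaluronan receptor, held 4, 7, 3 and 4 regions. Its promoter (chr2:102901459-102901610) was called with TGF-β at 7.56, from 29 fragments, and with set 2 at 7.50, from 26. In untreated cells and with set 1 no region was called, where the limits were about 25 and 27 fragments. The intron at 28.2 kb (chr2:102873270-102873612) had 6.20, 8.41, 7.70 and 6.74, and the region 42.4 kb upstream (chr2:102943854-102944262) had 5.89, 6.83, 6.01 and 6.27. The region 47.0 kb upstream had the narrowest range of these, with 6.95, 6.34, 6.16 and 6.58, from 29, 33, 32 and 31 fragments. Of the 2 regions called in 1 library, both with TGF-β, the stronger (chr2:102895358-102895517, in an intron) had 7.23.

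Enah, which encodes an actin regulator at the leading edge of migrating cells, held 2, 3, 3 and 1 regions. The region 38.2 kb upstream (chr1:182058046-182058386) had the highest fold enrichment of any member, 13.26 in untreated cells, and then 10.37, 9.41 and 8.05, from 45, 36, 34 and 30 fragments. The value was lower in each library of this order than in the one before, and the interval of the TGF-β difference in FPM ran from −1.09 to 0.25. The region 1.85 kb upstream (chr1:182021725-182021945) had 6.91 with TGF-β and 6.70 with set 1. In the intron at 34.9 kb the values were 6.54, 9.76 and 6.02, from 15, 29 and 16 fragments, and the log2 difference in FPM between set 1 and TGF-β was −0.94 (interval −1.92 to −0.02).

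A promoter region, with its middle within 2 kb of a TSS of its own gene, was called at 3, 6, 4 and 3 of the 8 genes (36%, 38%, 34.1% and 27.2% of protein-coding genes). In untreated cells these were Esrp2, Rbfox2 and Fgfr1, and with TGF-β also Esrp1, Cd44 and Enah. With set 2 they were Cd44, Rbfox2 and Rbm47. The 10 promoter regions had a median GC content of 58.7% and a CpG ratio (observed over expected) of 0.680, and the other 33 had 47.2% and 0.206.

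The alternative coding exons of the annotation were also set beside the regions. They were not limited to the switched exons named above, so a region in their span need not lie near a switched exon. GENCODE gives 3 alternative coding exons for Fgfr1, 4 for Fgfr2, 10 for Cd44 and 6 for Enah. No region lay in the span of those of Fgfr1, Fgfr2 or Cd44, and the nearest were 10.7 kb away at Fgfr1 and 8.97 kb at Cd44. The span of Enah (chr1:181911597-182014362) covered most of its gene body (chr1:181896384-182019990), and the 1 region in it was the intron at 34.9 kb. Of the splicing factors, Rbfox2 has 6 alternative coding exons with 2 regions in their span. The nearest region outside this span lay 0.151 kb from its edge, at the internal promoter. Rbm47 has 1 and Esrp1 2, with the nearest region 21.4 and 43.9 kb away, and Esrp2 has none.

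The AP1 core was found in 500 bp around the middle of 16 of the 43 regions (37.2%, 24.4 to 52.1%), against 36.4% of all merged regions. Rbm47 held 8 of these 16 in its 11 regions, and the other 7 loci held 8 in 32. AP1 matches were found at 8 of the 13 member regions called in all libraries, 1 of the 8 in 3 libraries, 3 of the 10 in 2 libraries and 4 of the 12 in 1 library, against 37.1%, 37.6%, 36.8% and 34.8% of all such regions. ETS was found in 10 (23.3%, against 30%), RUNX in 6 (14.1%), the E-box in 10 (30.4%), GRHL in 4 (7.55%), TEAD in 13 (30.1%), NFY (CCAAT) in 18 (49.7%) and SP1 (GGGCGGG) in 4 (18.8%), with the share of all merged regions in brackets. In the 33 member regions outside the 2 kb around a protein-coding TSS, AP1 was found in 14 (42.4%, against 46.1% of all such regions) and ETS in 10 (30.3%, against 26.8%), so both stood on the other side of the share of all regions there. The table of RefSeq promoters matched 4 of the 8 members, and in the 250 bases before and 50 after the start none held an AP1 match (5.17% of all promoters did), while those of Fgfr2 and Cd44 held an ETS match each (20.9%).

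Other genes were counted in the same way. In 13 other splicing regulators 11 loci held 49 regions, led by the muscleblind gene Mbnl2 with 10, its relative Mbnl1 with 8 and Celf2, of another family of RNA-binding proteins, with 6, and Ptbp2 and Rbm24 held none. Of the 39 regions called there with TGF-β, 16 were gained (41.0%) and 22 were absent with set 2 (56.4%). Over the whole list of that library these shares were 37% and 53.6%, which also apply to the next 2 gene lists. In 11 other FGF receptors, ligands and adaptors 8 loci held 28 regions, led by Fgf2 with 7 and by Fgf1 and Fgfrl1 with 5 each. There, 3 of 18 regions were gained (16.7%) and 11 were absent with set 2 (61.1%). All 10 other genes with epithelial and mesenchymal isoforms held regions, 58 in all, among them the cytoskeletal linker gene Macf1 with 13 and the junction scaffold gene Magi1 with 8, and of 51 regions 21 were gained (41.2%) and 28 absent with set 2 (54.9%).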

How the data were processed

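FAIRE-seq peak lists of 4 groups, 1 library each, were used, with groups taken from the sample labels. The authors trimmed reads to 36 bp, mapped them to mm10 with Bowtie and called peaks with MACS2 (version 2.1.0 in the submitters' processing notes) at q below 0.0001. Each deposited peak carries the authors' fold enrichment (a ratio, summit signal over local background), their -log10 p-value and -log10 q-value, and a score, deposited as a whole number, that follows from the q-value.

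Summit fragments and local background were solved from the deposited fold enrichment (with a pseudocount of 1) and p-value, and came out whole within 0.05 in 100% of peaks, with the background above its floor as whole reads in 10 kb of the same library. Depth was estimated with an effective genome size of 1.87 Gb, so fragments per M reads (FPM) rest on that estimate. The limit for a call was the 90th percentile of -log10 p among peaks within 5 bp of the shortest width, rescaled to the local background, and is an approximation. Most of those peaks lay under it, so it is higher than a call requires. Peaks that overlapped by 1 bp were taken as shared. Intervals are exact Poisson, exact conditional binomial for ratios of fragments, Wilson for shares and order statistics for medians, each at 95%. Medians over regions treat regions as separate, although those of a locus share their source.

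Genes and TSSs were those of GENCODE vM21 (basic set, GRCm38), and sequences from the RefSeq GRCm38 genome. Printed sequences overlap no annotated exon. The scripts (Python 3.11.15, numpy 2.4.6, pandas 2.3.3, scipy 1.17.1) were tested on simulated data. No test of a condition was made. The loci, lists and alternatives were chosen with earlier results of these data known. Regions were named if they lay at the gene's own promoter, were called in all 4 libraries, or had the highest fold enrichment of their locus or of its regions in 1 library. The Rbfox2 region at 86.7 kb, the Enah region at 34.9 kb, the Esrp2 region 3.97 kb upstream and the lost region of Rbm47 were named after their values were seen. In the other gene lists the loci with most regions were named, and 1 of them is not reported here. Alternatives were a q-value below 1e-06, lists of equal length, 20 kb upstream, an overlap of 50%, FPM in place of fold enrichment, a 300 bp window and a stricter ETS core (CCGGAAGT). RefSeq gene spans, Fgfr2 with its long transcript, and motifs only in regions outside the 2 kb around a TSS were added after the data were seen.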

Additional observations from a re-analysis of the deposited data

How the results depend on the processing

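With lists of equal length the loci held 21 regions in siControl with TGF-β, and 7 were gained, 4 lost, 7 absent with set 1, 9 absent with set 2, 4 new with set 1 and 3 new with set 2. This setting keeps fewer peaks of every library but that of set 2. With FPM in place of fold enrichment the median log2 ratio of set 2 was -0.63, against -0.67 over all regions. The long Fgfr2 transcript, a choice made after seeing the data, adds 51 regions. It gave 61, 82, 59 and 31 regions in the order untreated, TGF-β, set 1 and set 2. Of the 82, 26 were gained, against 37% of the whole list. Absent with set 1 and set 2 were 29 and 52 of them, against 33.6% and 53.6%. Lost were 5 of the 61 (against 18.4%), and new with set 1 were 6 of the 59 (against 15.2%). The stricter ETS core was found in 0% of the regions (3.44% of all merged regions). With a 300 bp window GRHL was found in 2.33% (4.60%), ETS in 14.0% (22.6%), RUNX in 6.98% (10.5%) and SP1 in 4.65% (15.8%). Outside the 2 kb around a TSS, also chosen after seeing the data, SP1 was found in 0% (6.34%). A q-value below 1e-06 could remove no region of the loci, whose lowest -log10 q was 6.24, and says nothing of stability. Taking 20 kb upstream, an overlap of 50% or RefSeq spans moved none of the counts over all loci or medians beyond these bounds (1.5 times, or the interval of the median), and no median changed sign under any alternative. For TGF-β, however, the interval of the median reached negative values with equal length (-0.13 to 0.38), 20 kb upstream (-0.21 to 0.45) and FPM (-0.03 to 0.49). In the other settings its lower bound was positive. At single loci, 20 kb upstream moved 6 of 32 counts by library, equal length 11 and RefSeq spans 1. The named regions rest on 15 to 45 summit fragments in a library, which limits every ratio. No paired analysis was possible because each group has 1 library and the result comes from no test.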

Other observations

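Of the 51 regions in the stretch covered only by the long Fgfr2 transcript, 13 were called in all 4 libraries, against 29.6% of all merged regions. The highest fold enrichment among the 51 was 13.04. The first of them (chr7:130519466-130519778) lay 42 bp from a TSS of Ate1, which encodes an arginyltransferase, and had a fold enrichment of 9.53 in untreated cells, 9.35 with TGF-β and 7.57 with set 2, with no call with set 1.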
